A study of Mus musculus with 14 samples.

Results

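Among 104750 cells kept from sorted mouse hindbrain at E14.5 and E18.5, 490 carried the transcripts of a *Tfap2b*-positive inhibitory neuron. A cell was counted when it held at least 1 unique molecular identifier (UMI, a captured RNA molecule counted once) of *Slc32a1*, at least 3 of *Gad1* and *Gad2* together, at least 1 of *Tfap2b*, at least 5 of the neuronal gene *Mapt* and at most 1 of *Barhl1*, and when it had at least 1000 detected genes and under 10% mitochondrial UMIs. E14.5 gave 352 of these neurons and E18.5 gave 138. All were cells sorted as positive for tdTomato and negative for the dead-cell dye DAPI, from C57BL/6J embryos that carry *Atoh1Cre* and the Cre-dependent *Rosa lsl-tdTomato* reporter. Control embryos were *Atoh1Cre/+*, so they keep 1 wild-type *Atoh1* allele, because the Cre knock-in takes the place of the *Atoh1* coding region. Mutant embryos (*Atoh1S193A/-*) carry the same Cre knock-in and, in place of the wild-type allele, the S193A allele, a change of 1 codon that UMI counts per gene cannot show. Each stage and genotype had 3 libraries of 1 embryo each. Mutant and control embryos of the same number were taken as littermates, and only cells that turned on *Atoh1Cre*, or were sorted as if they had, could be sampled. The study lists E14.5 control 1 as female and mutant 1 as male, so sex and genotype cannot be told apart in that pair. The other embryonic pairs are listed as of the same sex.

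Inhibitory neurons of the hindbrain release GABA, glycine or both. *Gad1* and *Gad2* encode the enzymes that make GABA, and *Slc32a1* encodes the transporter that loads GABA and glycine into synaptic vesicles. *Atoh1* marks dorsal progenitors of the rhombic lip, whose best-known progeny are excitatory and express *Barhl1*, whereas many dorsal inhibitory neurons descend from neighboring progenitors and pass through a state with *Pax2*, *Lhx1*, *Lhx5* and the AP-2 factors *Tfap2a* and *Tfap2b*.

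The genes of the rule lie on chromosomes 1, 2 and 11 of GRCm38 (GENCODE M21 annotation): *Slc32a1* at chr2:158610767-158615748 (plus strand), *Gad1* at chr2:70553072-70602014 (plus), *Gad2* at chr2:22622205-22693874 (plus), *Tfap2b* at chr1:19208914-19238576 (plus), *Barhl1* at chr2:28907679-28916668 (minus) and *Mapt* at chr11:104231390-104332090 (plus). UMIs were counted per gene, so no value below refers to a single exon or transcript end.

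The 12 embryonic libraries held between 108239001 and 193872318 UMIs and between 6407 and 11355 kept cells. The median inhibitory neuron had between 14062 and 19562 UMIs in the E14.5 libraries and between 11101 and 18018 in the E18.5 libraries. As a comparison, 21114 excitatory neurons were taken from the same libraries. They had at least 3 UMIs of *Slc17a6*, at least 5 of *Mapt* and none of *Slc32a1*, *Gad1* or *Gad2*. Their median was 19742 to 22903 UMIs at E14.5 and 12099 to 16458 at E18.5. No cell barcode was shared by inhibitory neurons of different libraries. In each library 1 to 7 of the inhibitory neurons were among the 7.5% of kept cells with the highest doublet scores, 3 of 6 in control 1 of E18.5, and these were kept unless stated. A pair of libraries stood apart. In litter 2 of E14.5, 41.8% of the control and 40.5% of the mutant inhibitory neurons also held *Slc17a6*, the vesicular glutamate transporter, against 6.8% to 19.4% in the other E14.5 libraries, and at E14.5 the neurons with it had medians of 19107 to 33253 UMIs against 13176 to 16984 for those without. Of the E14.5 neurons with *Slc17a6*, 28.6% and 50% (control and mutant of litter 1) and 18.2% and 14.7% (litter 2) were among the highest doublet scores. Those without it had 2.08%, 7.27%, 2.17% and 4%. In litter 3 the shares were 0% with it in both embryos and 4% and 2.78% without. In control 1 of E18.5 only 6 inhibitory neurons were found, so this library entered no test across genes. E14.5 controls 1 and 2 were made with another version of the counting software than the rest.

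At E14.5 the inhibitory neurons numbered 55, 79 and 31 in control libraries 1 to 3, which was 0.858%, 0.892% and 0.319% of kept cells, and 59, 84 and 44 in mutant libraries 1 to 3, which was 0.742%, 1.01% and 0.520%. At E18.5 the controls held 6, 17 and 29 (0.0744%, 0.180% and 0.318%) and the mutants 25, 26 and 35 (0.220%, 0.309% and 0.406%). The genotypes overlapped at both stages. The mutant share was higher than that of its littermate in 5 of 6 pairs, including all 3 at E18.5.

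The means at E14.5 were 0.690% ± 0.321 in control and 0.758% ± 0.246 in mutant embryos (SD, n = 3 each), with an odds ratio of 1.17 (two-sided exact permutation test of logits, p = 0.8). At E18.5 they were 0.191% ± 0.122 and 0.311% ± 0.0927 (SD, n = 3 each), with an odds ratio of 1.87 (exact permutation p = 0.3, where 0.1 is the smallest p that 3 against 3 libraries can give). Over both stages the odds ratio was 1.48 (exact permutation p = 0.23; exact sign-flip test over the 6 littermate pairs p = 0.0938). Neither genotype difference passed the test. At E18.5 all 3 littermate pairs had the higher share in the mutant (paired exact test p = 0.25, which is the lowest value possible with 3 pairs).

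Between the stages the share fell from 0.724% ± 0.259 to 0.251% ± 0.117 (SD, n = 6 each), with an odds ratio of 0.326 (exact permutation within genotype, p = 0.005, the smallest possible). The fall was not seen in cells thinned to equal depth, but thinning also changes which cells meet the fixed UMI limits of the rule. *Gad1* was at 65.3 to 148 CPM at E14.5 and 336 to 533 CPM at E18.5, and *Slc32a1* at 105 to 218 and 312 to 577 CPM, while *Gad2* went the other way. The thinned shares therefore cannot tell depth from the number of such neurons, and the part of depth in the fall was not tested. When cells were thinned to 8000 UMIs, shallower cells left out (5963 to 8755 cells remained per E14.5 library and 6745 to 10591 per E18.5 library), and the same rule was applied, the E14.5 libraries gave 12, 19 and 15 (control) and 17, 21 and 10 (mutant) inhibitory neurons, the E18.5 libraries 5, 13 and 20 and 23, 16 and 22, and the odds ratio was 0.925 (exact permutation p = 0.75).

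**Figure D1:**
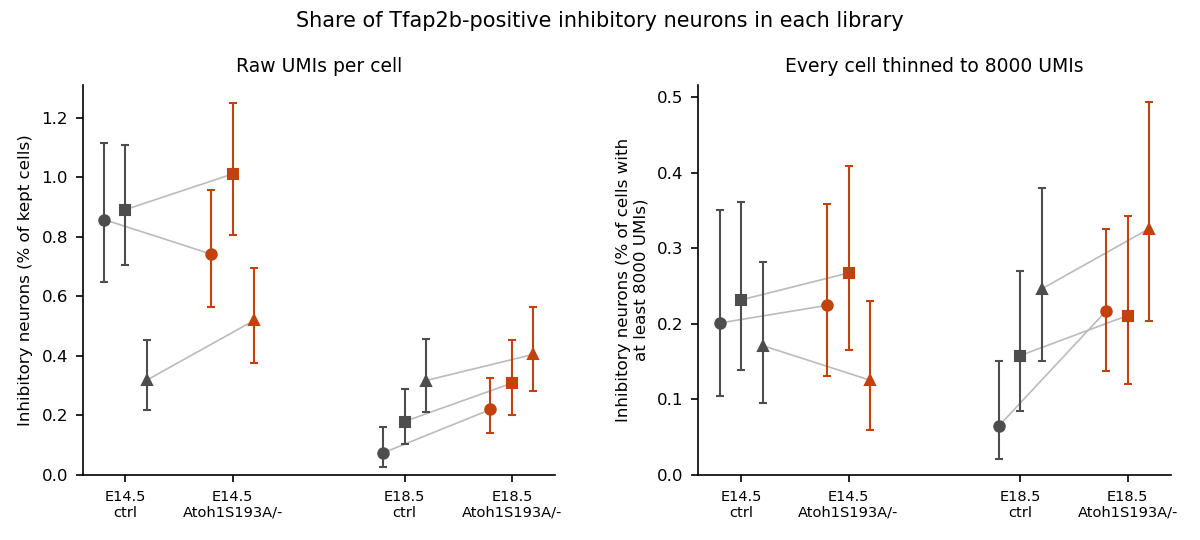
Inhibitory neurons as a percent of kept cells in each of the 12 embryonic libraries (y axis, percent; bars on points are exact 95% binomial intervals, which cover counting error only; lines join littermates), for all UMIs and for cells thinned to 8000 UMIs. With all UMIs the E14.5 shares reach 1.01% and the E18.5 shares 0.406%, and the gap between stages closes after thinning.

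Cells that met every other condition but had no *Tfap2b* UMI were also common. *Tfap2b*-positive cells made up 352 of 1296 inhibitory cells at E14.5, or 27.2% (between 21.8% and 33.7% per library), and 138 of 269 at E18.5, or 51.3% (between 40.3% and 70.3%). At the edge of the rule, 63 neurons at E14.5 and 6 at E18.5 were inside with exactly 1 UMI of *Tfap2b*, while 944 and 131 cells were outside with 0. *Pax2* was at 64.7 CPM (UMIs of a gene scaled to a common library total) in the cells with 1 UMI of *Tfap2b* at E14.5 and at 80.0 CPM in those with 0. At E18.5 the same values were 201 and 41.5 CPM.

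The genes that chose the cells are given as a description. *Gad1* was at 145, 65.3 and 104 CPM in the E14.5 controls and at 148, 73.5 and 117 CPM in the E14.5 mutants. At E18.5 it was at 533, 484 and 385 CPM in controls and 453, 336 and 377 CPM in mutants, so that all 6 later libraries were above all 6 earlier ones. *Gad2* went the other way, with 267 to 323 CPM at E14.5 and 159.9 to 244 CPM at E18.5, all 6 later libraries below all 6 earlier ones. *Slc32a1* had its lowest values in litter 2 of E14.5 (111 and 105 CPM), with 172 to 218 CPM in the other E14.5 libraries and 312 to 577 CPM at E18.5. *Tfap2b* was between 363 and 779.9 CPM at E14.5 and between 737 and 1219 CPM at E18.5. *Barhl1*, capped by the rule, was at 2.2 to 6.7 CPM at E14.5 and 0 to 17.2 CPM at E18.5, while the excitatory neurons had 85.5 to 179.7 CPM and 222 to 319 CPM.

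The label inhibitory neuron was then checked with genes that the rule did not use. The excitatory neurons set beside them had been chosen to hold no *Slc32a1*, *Gad1* or *Gad2* UMI, which may lower the shares of other inhibitory genes in them. *Pax2* was found in 29.8% to 69.5% of inhibitory neurons at E14.5 and in 76.9% to 91.4% at E18.5, and in at most 3.22% and 1.07% of excitatory neurons of any library. *Tfap2a*, the paralog of *Tfap2b*, was found in 51.6% to 82.1% of them at E14.5 and *Lhx5* in 64.5% to 84.5%, against at most 2.71% and 6.53% of excitatory neurons. *Slc6a5*, the glycine transporter of glycinergic terminals, was found in 22.6% to 58.2% at E14.5 and 5.88% to 50% at E18.5. *Npy*, a neuropeptide given as a marker of these cells, held for E14.5 only. It was found in 10.7% to 45.2% of the E14.5 neurons, in none of the neurons of 5 of the 6 E18.5 libraries and in 1 cell of E18.5 mutant 3.

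Markers of other cell types were present to different degrees. The 16 excitatory factors of the *Atoh1* lineage, the lineage that the sort was aimed at, summed to 1288 to 1858 CPM at E14.5 and 1748 to 1991 CPM at E18.5. Of these *Zic1* was at 342 to 635 and 952 to 1165 CPM, *Nhlh2* at 205 to 324 and 282 to 326 CPM and *Neurod1* at 104 to 314 and 121 to 349 CPM, while *Atoh1* and *Barhl1* reached at most 17.4 CPM. The 6 red blood cell genes summed to 3.97 to 96.3 CPM and 0 to 10.9 CPM. *Csf1r* and *Tyrobp* of microglia, *Sox10* of the oligodendrocyte lineage and *Pdgfrb* of mural cells were at 0 in every library. The 6 microglia genes summed to 0 to 5.96 CPM at E14.5 and 0 to 49.3 CPM at E18.5, with 12 UMIs of *Cx3cr1* in 1 cell of E14.5 mutant 2 and 21 in 1 cell of E18.5 mutant 2. The 7 oligodendrocyte lineage genes summed to 27.4 to 44.2 CPM and 58.0 to 115 CPM, and the 7 endothelial and mural genes to at most 12.6 and 14.51 CPM. The summed level of the Purkinje cell list was 273 to 667 CPM at E14.5 and 259 to 583 CPM at E18.5, and *Skor2*, a factor of young Purkinje cells, was at 0.963 to 15.4 CPM at E14.5 and at 0 in every E18.5 library. The astrocyte and radial glia list summed to 77.3 to 490.0 CPM at E14.5 and 52.2 to 138 CPM at E18.5.

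The inhibitory neurons of E14.5 were not 1 kind of cell. *Hox* genes are expressed by position along the hindbrain, and most paralog groups are used in its caudal part. At E14.5, 183 neurons had at least 3 UMIs over 22 *Hox* genes, 61 had 1 or 2, and 108 had none. The share with at least 3 was 65.5%, 48.1% and 51.6% in controls and 44.1%, 51.2% and 54.5% in mutants, so the genotypes overlapped, and it was 49.4% to 63.1% among excitatory neurons. At E18.5 only 8 of 138 neurons had at least 3 *Hox* UMIs (0% to 8.0% per library) and 118 had none, whereas 9.90% to 34.2% of the excitatory neurons of those libraries had at least 3.

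Because the split by *Hox* genes was made on these same cells, the differences between its classes are a description without a test. They are shares over cells pooled from 6 libraries, and the first class, which needs 3 UMIs, holds deeper cells, with library medians of 15798.5 to 28547.5 UMIs against 11418 to 16071. *Npy* was found in 41.5% of the *Hox*-positive neurons of E14.5 and in 7.41% of those without a *Hox* UMI. *Sst*, which encodes somatostatin, was found in 53.0% and 14.8%, and *Pax8*, a relative of *Pax2*, in 50.8% and 4.63%. By CPM within a library, and against the neurons with 0 to 2 *Hox* UMIs, *Pax8* was higher in the *Hox*-positive neurons of 6 of 6 libraries, *Npy* of 5 (mutant 2 had 31.0 against 60.8 CPM) and *Sst* of 4 (control 3 had 549 against 1382 CPM and mutant 1 had 162 against 316 CPM). *Mab21l2* (81.4% and 32.4%), *Sall3* (44.3% and 0%), *Gbx2* (36.6% and 3.70%) and *Lbx1*, a determinant of dorsal association neurons (54.1% and 11.1%), leaned the same way. The neurons without *Hox* UMIs more often held the forkhead factor *Foxp2* (84.3% against 32.8%), the midbrain and rostral hindbrain factors *En1* (55.6% against 22.4%) and *En2* (75.9% against 24.6%), and *Ebf2* (75.9% against 38.3%). The reporter element did not follow this split, with 50.3% of *Hox*-positive and 51.9% of *Hox*-free neurons.

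The E18.5 neurons without *Hox* UMIs matched neither class of E14.5. *Ebf1* was found in 28.0% of them and *Ebf2* in 11.9%, below both E14.5 classes. *En2* (69.5%) was near the *Hox*-free neurons of E14.5, whereas *Sst* (55.9%) and *Foxp2* (33.1%) were near the *Hox*-positive ones. *Pax2* (85.6%) and *Pnoc*, which encodes the precursor of nociceptin (74.6%), were above both.

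**Figure D2:**
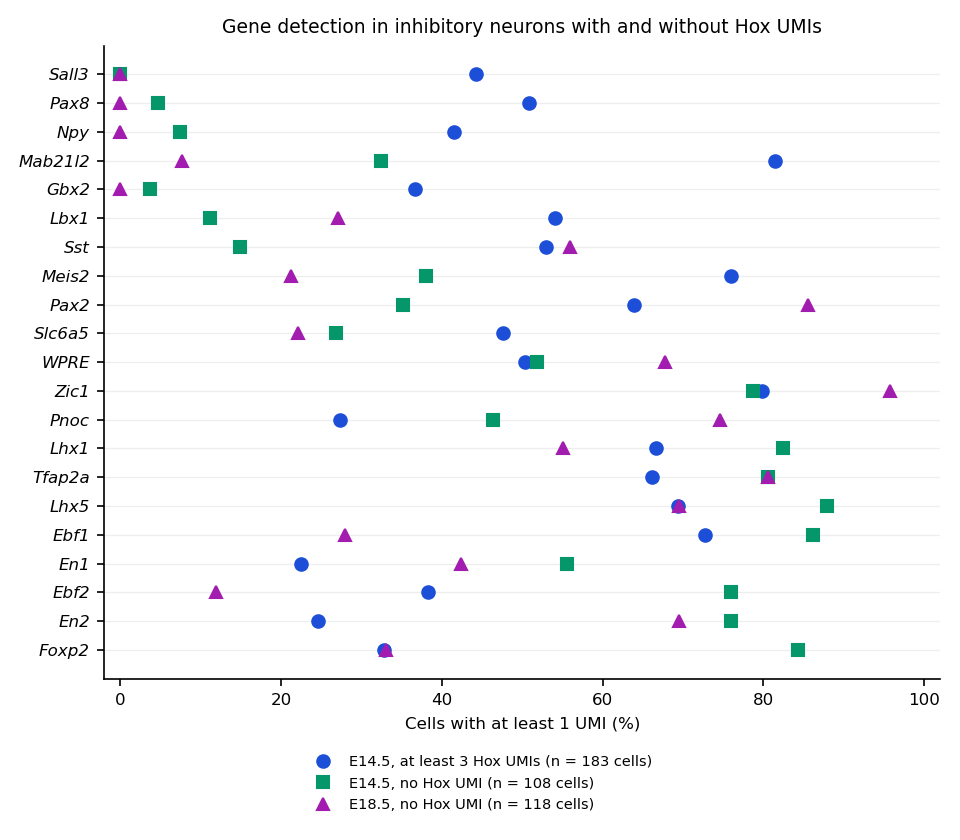
Percent of inhibitory neurons with at least 1 UMI (x axis) of each gene (y axis) in 3 classes: E14.5 with at least 3 *Hox* UMIs (n = 183 cells), E14.5 with none (n = 108) and E18.5 with none (n = 118); cells of all libraries and both genotypes of a stage are pooled. *Npy*, *Pax8* and *Sall3* lie to the right in the first class, and *Foxp2*, *En2* and *Ebf2* in the second.

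At E14.5 54 neurons held both *Npy* and *Sst*, 33 *Npy* alone and 71 *Sst* alone. Of the *Npy*-positive neurons 62.1% had *Sst*, against 26.8% of the *Npy*-negative ones. *Foxp2* went the other way from *Pax2*, in 39.9% of *Pax2*-positive and 75.3% of *Pax2*-negative neurons. Both are shares over cells pooled from 6 libraries of unequal depth.

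To ask how the inhibitory neurons of E18.5 differed from those of E14.5, UMIs were summed over the neurons of each library and 11 libraries were compared by edgeR's quasi-likelihood test. In controls 533 genes were higher and 556 lower at E18.5, 10.2% of 10661 genes tested (5.0% higher, 5.22% lower). In mutants 750 were higher and 652 lower, or 13.2% (7.03% higher, 6.12% lower). Of these, 696 changed in the same direction in both genotypes, 63.9% of the control calls and 49.6% of the mutant calls, and 0 in opposite directions. The genotypes are separate embryos, but both comparisons came from the same fit with a shared estimate of the spread. Same-numbered embryos were also taken as littermates, so the shared calls are not independent repeats. Each call needed a Benjamini-Hochberg adjusted p (FDR) under 0.05 and a log2 change over 0.25 in size. The makeup of the neurons by *Hox* class, given above, moved with stage, and its part in these changes was not tested beyond a fit to neurons without any *Hox* UMI, which gave 770 calls in controls (557 of them shared) and 1041 in mutants (848 shared).

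The stage calls in controls rested on 17 and 29 neurons of 2 E18.5 libraries. Several alternatives leave 1 library in an arm of the control comparison, and the lone library is then assumed to vary like the other groups. Without E18.5 control 2 or 3 the other is the only E18.5 control, with the newer software version alone E14.5 control 3 is the only E14.5 control, and a limit of 5% mitochondrial UMIs leaves 3, 3 and 12 neurons in the E18.5 controls, of which the library with 12 was tested. In mutants that limit left 14 and 20 neurons in the 2 E18.5 libraries tested. Of 44 called control genes followed through the alternatives, 21 lost their call without E18.5 control 3, 9 without control 2, 21 with the newer version alone and 25 under 5% mitochondrial UMIs. *Igfbp5*, *Sp5*, *Nr3c1*, *Hoxb4*, *Lhx1*, *Hoxb3*, *Mab21l2*, *Bcl11b*, *Zic1*, *Dab1*, *Syn2*, *Tubb3* and *Unc5c* passed in controls in every alternative that gave a value (13 genes, 20 alternatives). In mutants 28 of 50 did, among them *Igfbp5*, *Lhx1*, *Mab21l2*, *Unc5c*, *Cdkn1c* and *Foxp2*, and 18 lost their call under 5% mitochondrial UMIs.

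Of 5 tested genes of GABA synthesis and transport, 3 were higher at E18.5 in both genotypes and none was lower. *Slc6a11*, which encodes a plasma membrane GABA transporter, was at 2.15, 0 and 2.21 CPM in the E14.5 controls and 17.8, 15.0 and 34.8 CPM in the E18.5 controls, and at 4.81, 0.994 and 3.43 CPM against 23.0, 39.9 and 19.3 CPM in mutants. *Abat*, which breaks GABA down, was at 45.2, 35.1 and 64.1 CPM and 88.8, 99.7 and 128 CPM in controls, and at 47.2, 23.3 and 51.5 CPM and 141, 91.6 and 106 CPM in mutants. For both genes every E18.5 library was above every E14.5 library. The log2 change of *Slc6a11* was 4.47 ± 0.86 (SE) in controls (edgeR, FDR = 0.00283) and 3.19 ± 0.62 in mutants (FDR = 0.00225), and that of *Abat* 1.22 ± 0.33 (FDR = 0.0266) and 1.41 ± 0.29 (FDR = 0.00302). Without E18.5 control 3 the control changes of these were 3.59 (FDR = 0.220) and 0.98 (FDR = 0.350), and with Cell Ranger 5.0.1 libraries only they were 3.35 (FDR = 0.153) and 0.67 (FDR = 0.469). The control call of *Abat* was also lost without E14.5 control 1 (FDR = 0.0618), E14.5 control 2 (FDR = 0.0996) or E18.5 control 2 (FDR = 0.0552). Under 5% mitochondrial UMIs neither gene passed in controls (FDR = 0.209 for *Slc6a11* and 0.231 for *Abat*) or in mutants (0.103 and 0.124). *Slc6a5* was the only tested gene of glycine transport and passed in neither genotype.

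**Figure D3:**
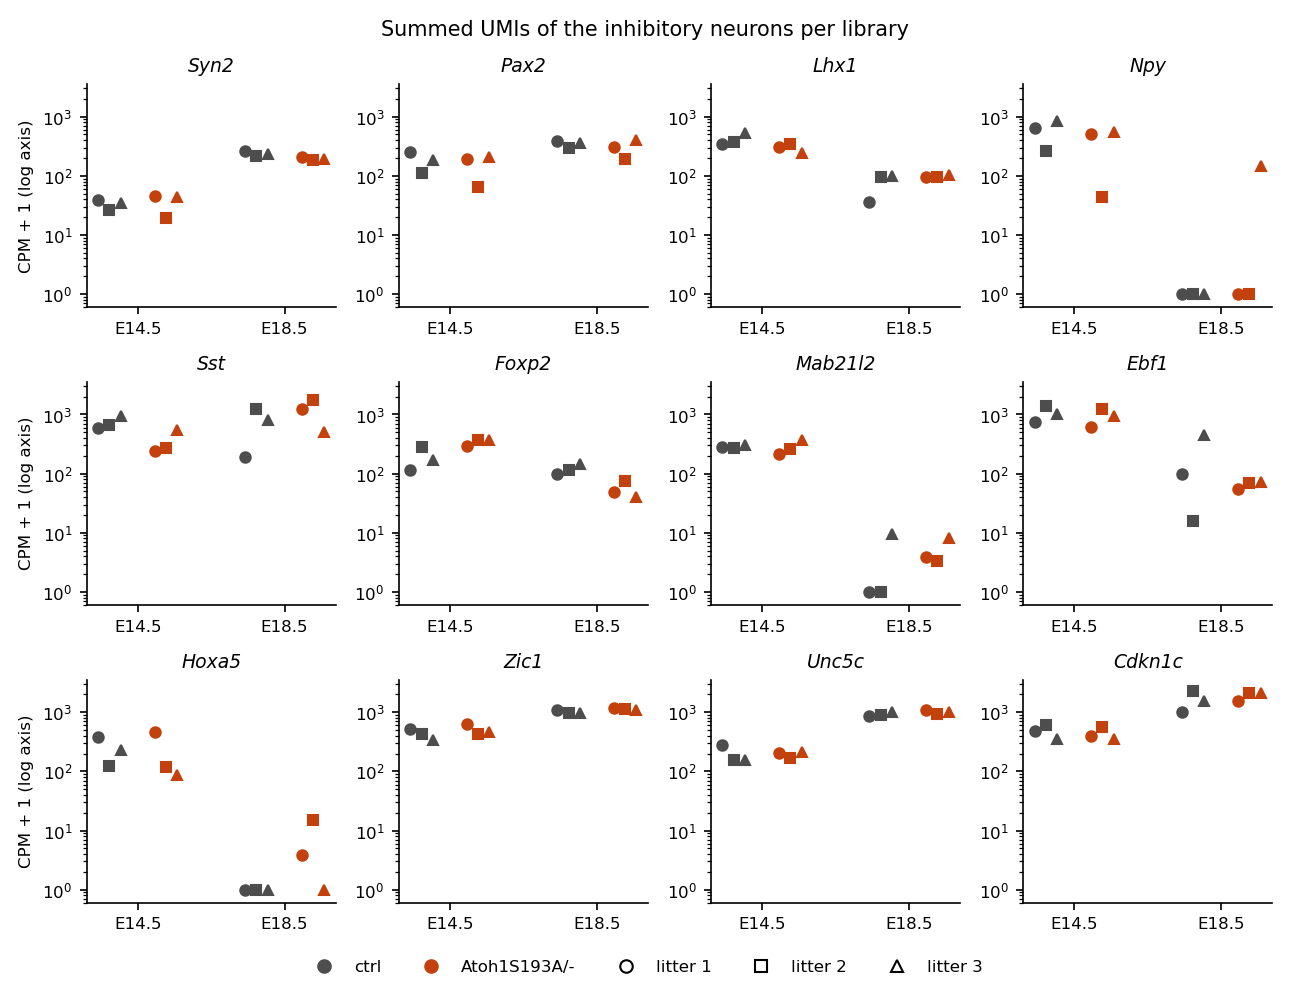
Level of 12 genes in the summed inhibitory neurons of each library (y axis, CPM + 1 on a log axis), with libraries grouped by stage and genotype. *Syn2*, *Unc5c* and *Cdkn1c* are higher in every E18.5 library than in any E14.5 library, and *Lhx1* and *Mab21l2* are lower.

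Among 8 tested dorsal inhibitory fate factors none rose, while 3 fell in controls and 5 in mutants. *Lhx1*, a LIM homeodomain factor, was at 347, 367 and 521 CPM in E14.5 controls and 306, 344 and 242 CPM in E14.5 mutants. At E18.5 it was at 35.5, 94.8 and 100 CPM in controls and 94.7, 96.2 and 104 CPM in mutants, below every E14.5 library. Its log2 change was -2.22 ± 0.24 (edgeR, FDR = 2.08e-05) in controls and -1.71 ± 0.20 (FDR = 1.75e-05) in mutants. *Pax5* fell by 3.80 and 2.74 and *Pax8* by 5.12 and 3.86 on the log2 scale, and *Pax8* was at 0 in 4 of the 6 E18.5 libraries. The control call of *Pax5* was lost without E18.5 control 2 (FDR = 0.0621) or 3 (0.121), with Cell Ranger 5.0.1 libraries only (0.133) and under 5% mitochondrial UMIs (0.360; 0.186 in mutants). That of *Pax8* was lost without E18.5 control 3 (FDR = 0.0564) and under 5% mitochondrial UMIs (0.191), and its mutant call without *Hox* UMIs (-2.43, FDR = 0.392). *Lhx5* passed in mutants (-1.02 ± 0.19, FDR = 0.00126) and not in controls (-0.39 ± 0.21, FDR = 0.268).

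*Pax2* (chr19:44756045-44837871, plus strand) stood against these. It was at 249.8, 109.7 and 183 CPM in E14.5 controls, 189, 63.1 and 207 CPM in E14.5 mutants, 382, 299 and 352 CPM in E18.5 controls and 310.0, 192 and 404 CPM in E18.5 mutants. Its log2 change of 0.72 ± 0.41 in controls (edgeR, FDR = 0.289) and 0.89 ± 0.36 in mutants (FDR = 0.118) did not pass. *Tfap2a* was within 110.5 to 261 CPM at E14.5 and 175 to 296 CPM at E18.5 and did not pass either.

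Of 16 tested *Hox* genes 12 fell in controls and 13 in mutants, with no rise. With the 9 (controls) and 7 (mutants) *Hox* genes that had no UMI at E18.5 set to the bound that 3 counts allow, the list's median log2 change was -4.38 and -3.51, against -0.02 and -0.01 for all genes tested. *Hoxb8* was at 412, 174 and 170.1 CPM in E14.5 controls and 216, 1.49 and 301 CPM in E14.5 mutants, with 3 UMIs in mutant 2, and had no UMI in any E18.5 library, so it was at least 53.4-fold lower in the tested controls and at least 49.4-fold lower in mutants. The control call of *Hoxb8* was lost without any of E14.5 control 1 (FDR = 0.0851), E14.5 control 3 (FDR = 0.061), E18.5 control 2 and E18.5 control 3. It was also lost with Cell Ranger 5.0.1 libraries only and under 5% mitochondrial UMIs. The mutant call was lost without E18.5 mutant 1 (FDR = 0.068), mutant 2 (FDR = 0.0642) or mutant 3 (FDR = 0.0639), and under 5% mitochondrial UMIs. *Hoxa5* was at least 46.3-fold lower in controls, where excitatory neurons still had 52.8 to 154 CPM at E18.5. The control call of *Hoxa5* was lost without E18.5 control 3 and under 5% mitochondrial UMIs. *Hoxb3* fell by a log2 of 5.09 ± 0.59 (edgeR, FDR = 3.58e-05) and 3.78 ± 0.41 (FDR = 9.77e-06).

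*Npy* (chr6:49822710-49829507, plus strand) was at 642, 259 and 857 CPM in E14.5 controls and at 502, 42.7 and 548 CPM in E14.5 mutants, with the lowest value of each genotype in litter 2. It had no UMI in any E18.5 control, which was at least 100.1-fold lower, and 148 CPM from 1 cell in E18.5 mutant 3 with 0 in the other mutants (log2 change -2.94 ± 0.93, edgeR FDR = 0.0468). The mutant call was lost without E14.5 mutant 1 (FDR = 0.1003), E14.5 mutant 3 (0.110), E18.5 mutant 1 (0.162) or E18.5 mutant 2 (0.154), and also without control 1 (0.0574) or 3 (0.0575) of E14.5 or control 2 (0.0544) or 3 (0.0551) of E18.5. It was lost as well with DESeq2 (adjusted p = 0.497), in Cell Ranger 5.0.1 libraries (FDR = 0.0565) and under 5% mitochondrial UMIs (log2 change -0.72, FDR = 0.735). The control call was lost under 5% mitochondrial UMIs (FDR = 0.219) and with either E18.5 control 2 (FDR = 0.0606) or control 3 (FDR = 0.166) left out, and among neurons without a *Hox* UMI *Npy* did not pass in controls (FDR = 0.176). Inhibitory cells without *Tfap2b* kept *Npy* at E18.5, where their lowest library was at 91 CPM and their highest at 889 CPM. *Sst* (chr16:23889573-23890958, minus strand) did not fall. It was at 593, 665 and 930.1 CPM in E14.5 controls and 187, 1257 and 818 CPM in E18.5 controls (log2 change 0.33 ± 0.38, FDR = 0.651), and at 245, 270.3 and 540.4 CPM in E14.5 mutants and 1226, 1737 and 508 CPM in E18.5 mutants (1.61 ± 0.35, FDR = 0.00458; 1.08, FDR = 0.561 under 5% mitochondrial UMIs). *Sst* is also carried by excitatory neurons, which had 324 to 394 CPM and 125 to 222 CPM.

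Among 24 tested general factors of neuron subtype, 2 rose and 7 fell in controls and 4 rose and 11 fell in mutants. *Mab21l2* and *Zic1*, given here beside them, are outside these counts and belong to the list of excitatory factors of the *Atoh1* lineage. *Mab21l2* was at 212 to 371 CPM in the 6 E14.5 libraries and at most 8.70 CPM at E18.5 (log2 change -5.69 ± 0.45, edgeR FDR = 2.53e-06, and -6.12 ± 0.38, FDR = 5.58e-08), while excitatory neurons kept 129 to 248 CPM. *Bcl11b* fell from 139.6 to 247 CPM to 8.88 to 41.1 CPM, and the helix-loop-helix factor *Ebf1* fell from 621 to 1373 CPM to 15.0 to 448 CPM, with the highest later value in E18.5 control 3. *Bhlhe22* rose by 2.47 ± 0.41 (FDR = 0.000983) and 1.93 (FDR = 0.00188) and *Prdm8* by 3.28 ± 0.62 and 2.23 on the log2 scale. In controls *Bhlhe22* was 1.05 (FDR = 0.495) under 5% mitochondrial UMIs, and *Prdm8* lost its call there (FDR = 0.122) and with Cell Ranger 5.0.1 libraries only (0.0855), as it did in mutants with DESeq2 (adjusted p = 0.0724). *Ebf1* in controls did not pass with DESeq2 (adjusted p = 0.139) or with Cell Ranger 5.0.1 libraries only (FDR = 0.0971). *Zic1*, a zinc finger factor of dorsal neurons, was at 529.8, 420.1 and 342 CPM (control) and 635, 423 and 456 CPM (mutant) at E14.5 and at 952 to 1165 CPM at E18.5 (log2 change 1.00 ± 0.18, FDR = 0.00195, and 1.06 ± 0.16, FDR = 0.000309; in mutants 0.58, FDR = 0.166, under 5% mitochondrial UMIs).

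Rostral genes did not rise as a group. Of 8 tested, 1 rose and 3 fell in controls and 5 fell in mutants. *En2* was higher in E18.5 controls (0.86 ± 0.25, edgeR FDR = 0.037) and not in mutants (0.11, FDR = 0.799). The control call of *En2* was lost without E14.5 control 1 (FDR = 0.104), E14.5 control 3 (FDR = 0.0877), E18.5 control 2 (FDR = 0.0861) or E18.5 control 3 (FDR = 0.316), and among neurons without a *Hox* UMI its change was -0.64. *Irx1* fell by 2.58 (FDR = 0.0321) and 2.57 (FDR = 0.00627) and *Irx2* by 3.24 (FDR = 0.00634) and 2.50 (FDR = 0.00162) on the log2 scale. The control call of *Irx1* was lost with DESeq2 (adjusted p = 0.0652), with Cell Ranger 5.0.1 libraries only (FDR = 0.376), under 5% mitochondrial UMIs (0.239), without *Slc17a6* UMIs (0.0668), without litter 2 of E14.5 (0.0888) or its control (0.113), and without E18.5 control 2 (0.122) or 3 (0.272). That of *Irx2* was lost with Cell Ranger 5.0.1 libraries only (FDR = 0.157) and without E18.5 control 3 (FDR = 0.260). In mutants *Irx1* did not pass under 5% mitochondrial UMIs (FDR = 0.0828) or without *Hox* UMIs (0.0525), nor *Irx2* without *Slc17a6* UMIs (0.0563). A Purkinje cell gene, *Foxp2*, fell in mutants (-2.78 ± 0.29, FDR = 7.80e-06) and not in controls (-0.69 ± 0.32, FDR = 0.178), and another, *Dab1*, a reelin signal adaptor, rose in both (2.01 ± 0.24 and 1.48 ± 0.20).

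Of 23 tested genes of synapse and maturation 11 rose, 1 fell and 11 did not pass in each genotype. *Syn2*, which binds synaptic vesicles, went from 18.4 to 44.3 CPM at E14.5 to 183 to 258 CPM at E18.5 without overlap (log2 change 2.71 ± 0.29, edgeR FDR = 2.08e-05, and 2.42 ± 0.26, FDR = 7.90e-06), against 30.3 to 56.8 CPM and 82.4 to 104 CPM in excitatory neurons. Of 16 tested glutamate receptor genes 8 rose in controls and 7 in mutants, with none lower. *Grik3* rose by 2.21 and 2.91 and *Grin1* by 2.01 and 1.34 on the log2 scale. Of 15 tested receptor genes for GABA and glycine 3 rose in each genotype, among them *Glra2* (2.00 ± 0.41 and 1.53). The control calls of *Grik3*, *Grin1* and *Glra2* were lost without E18.5 control 3 (FDR = 0.229, 0.0817 and 0.0714) and with Cell Ranger 5.0.1 libraries only (0.152, 0.116 and 0.164), and those of *Grik3* and *Glra2* under 5% mitochondrial UMIs (0.123 and 0.152). In mutants *Grin1* lost its call without E18.5 mutant 1 (1.09, FDR = 0.0688), and *Glra2* under 5% mitochondrial UMIs (0.103) and without *Hox* UMIs (0.0576). *Slc12a5*, the chloride extruder KCC2, passed in mutants (1.47, FDR = 0.0287) and not in controls (1.08, FDR = 0.163). The mutant call was lost without E14.5 mutant 2 (1.02, FDR = 0.122), E18.5 mutant 1 (0.98, FDR = 0.226), litter 2 of E14.5 (FDR = 0.0684), the neurons with *Hox* UMIs (0.0767) or those with 5% or more mitochondrial UMIs (0.118).

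Of 11 tested genes of young neurons, 8 fell in controls and 9 in mutants. *Tubb3*, a neuronal tubulin, was between 2379 and 3787 CPM at E14.5 and between 863 and 1181 CPM at E18.5 (log2 change -1.81 ± 0.18, edgeR FDR = 8.24e-06, and -1.76 ± 0.15, FDR = 1.44e-06). *Dcx* was the exception, higher in mutants (0.68, FDR = 0.00282; 0.50, FDR = 0.0961, under 5% mitochondrial UMIs). Of 17 tested axon guidance genes, 1 rose and 4 fell in controls and 3 rose and 8 fell in mutants. The netrin receptor *Unc5c* went from 156 to 281 CPM to 870.5 to 1102 CPM (2.12 ± 0.20, FDR = 6.84e-06, and 2.28 ± 0.19, FDR = 9.28e-07), and *Robo3*, a receptor of commissural axons, fell by 2.83 and 3.89 on the log2 scale. Its control call was lost with DESeq2 (adjusted p = 0.112), with Cell Ranger 5.0.1 libraries only (FDR = 0.0515) and under 5% mitochondrial UMIs (0.0513).

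**Figure D4:**
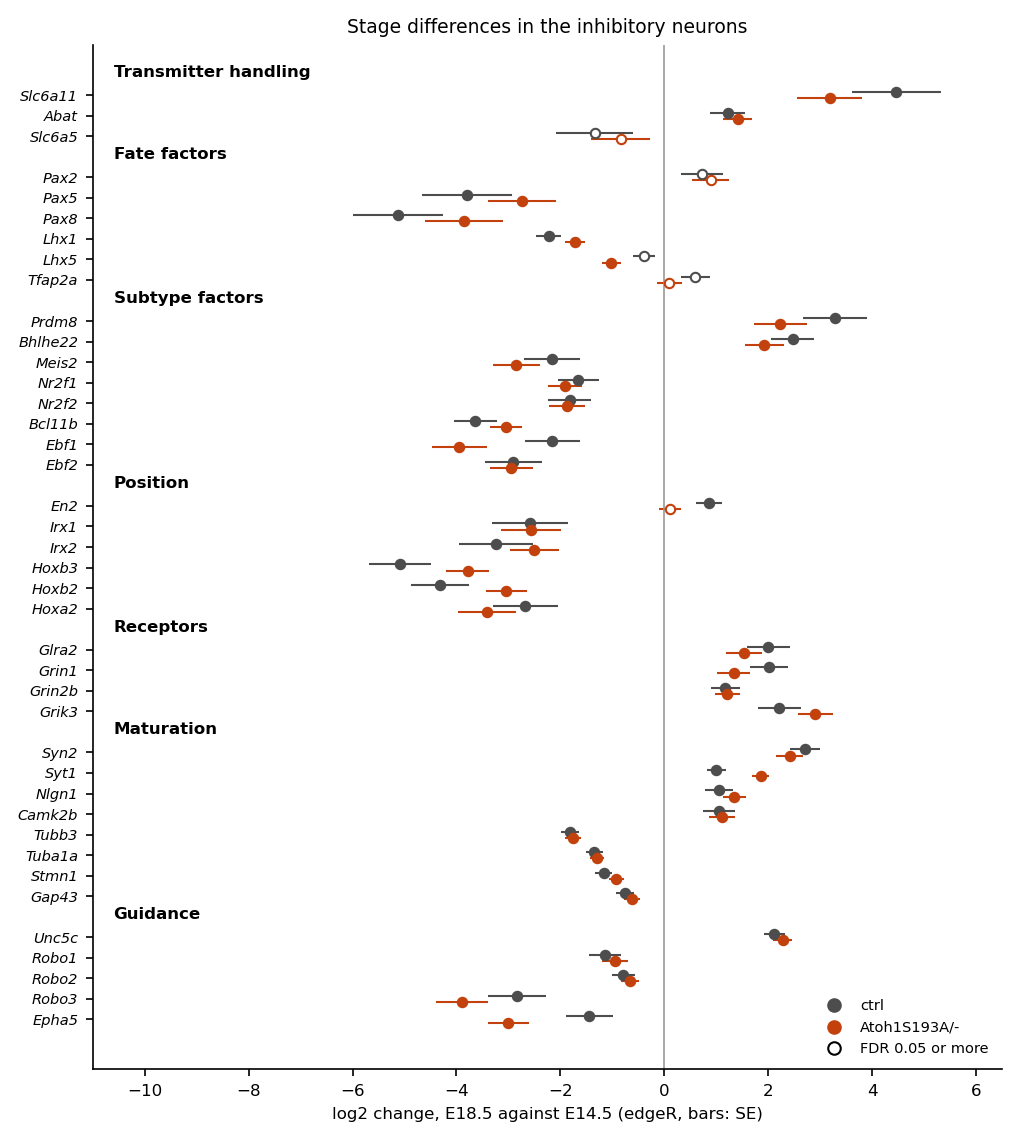
Log2 change from E14.5 to E18.5 with its standard error (x axis) for list genes (y axis) in control and mutant inhibitory neurons; open circles did not reach an FDR of 0.05. *Unc5c* (2.12 and 2.28) lies among the rises and *Lhx1* and *Tubb3* among the falls of both genotypes.

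The named-gene rule took the 10 largest changes of each direction without overlap among the tested libraries, which leave out E18.5 control 1. In controls the rises were led by *Igfbp5* (chr1:72857932-72874884, minus strand), which encodes an IGF binding protein. It was at 28.0, 17.0 and 17.7 CPM in E14.5 controls and at 74.1, 3.97 and 10.3 CPM in E14.5 mutants, and at 1298 to 2169 CPM in all E18.5 libraries, with a log2 change of 6.34 ± 0.61 (edgeR, FDR = 6.84e-06) and 5.92 ± 0.56 (FDR = 2.01e-06). *Sp5*, a zinc finger factor downstream of Wnt signaling (chr2:70474923-70477729, plus strand), rose by 4.32 ± 0.47 and 5.50 ± 0.46. In controls *Tuba4a* (5.91), *Rasgrp1* (5.30), *Angpt1* (4.92), *Slc6a11*, *Slc4a4* (4.35), *Tmem114* (4.31), the glucocorticoid receptor *Nr3c1* (4.31 ± 0.58) and *Thsd4* (4.27) followed in log2 change. Of these *Rasgrp1* (FDR = 0.0514), *Thsd4* (0.155) and *Slc6a11* (0.220) were not called without E18.5 control 3 and *Tmem114* (0.0802) not without control 2, and all but *Nr3c1* lost their call with Cell Ranger 5.0.1 libraries only. Counts in the tested controls were low, with 1 UMI at E14.5 and 20 at E18.5 for *Tuba4a*. *Rasgrp1* had 1 and 13, and *Tmem114* and *Thsd4* had 3 and 15 each. In E18.5 control 1, outside the fit, *Slc4a4* and *Thsd4* were at 0 CPM, so they overlapped E14.5 controls. In mutants the other rises were *Scrg1* (7.03), *Arg1* (5.95 ± 0.57), *Insc* (5.49), *Top2a* (5.30), *Cenpf* (4.85), *Cadps2* (4.68), *Ube2c* (4.55) and *Optn* (4.53 ± 0.40). *Scrg1* had 1 UMI at E14.5 and 69 at E18.5, and *Insc* had 2 and 39. *Top2a*, *Cenpf* and *Ube2c* are genes of dividing cells. Without E18.5 mutant 2 the change of *Cenpf* was 1.89 (FDR = 0.187) and that of *Ube2c* 2.27 (FDR = 0.0695), and without the highest doublet scores that of *Cenpf* was 1.65 (FDR = 0.164). *Mki67* of the same program was found in 2, 3 and 4 cells of the E18.5 mutants, and 1 cell gave 50%, 51.3% and 87.5% of its UMIs.

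The controls' largest falls, beside *Npy* and the *Hox* genes, were *Sall3* (at least 16.8-fold), *Lhx2* (at least 14.6-fold), *Dmrtb1* (at least 8.38-fold) and *Gbx2* (at least 8.18-fold). These bounds hold for the tested controls, and in E18.5 control 1, outside the fit, *Dmrtb1* was at 8.88 CPM. Without E18.5 control 3 none of the 4 was called (FDR = 0.120, 0.225, 0.177 and 0.0618). In mutants *Hoxb6* was at least 11.0-fold lower, and *Crabp2*, a retinoic acid binding protein, *Zfp503* and *Sall3* fell by 6.29, 6.12 and 5.85 on the log2 scale. These 3 sizes are uncertain, because each gene had 1 UMI in the E18.5 mutants together, against 326, 296 and 180 at E14.5. The mutant calls of *Hoxb6* and *Zfp503* were lost under 5% mitochondrial UMIs, and that of *Zfp503* also among neurons without a *Hox* UMI. *Ttr* also met the rule (-6.67), with 2368 CPM in E14.5 mutant 3 and at most 58.7 CPM in the other E14.5 libraries, and without that library it was not called.

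Some lists moved with single members. *Cdkn1c*, an imprinted inhibitor of the cell cycle, was the only riser of 9 tested imprinted genes. It was at 474, 615 and 347 CPM in E14.5 controls, 392, 566 and 356 CPM in E14.5 mutants, 1021, 2294 and 1569.9 CPM in E18.5 controls and 1547, 2122 and 2121 CPM in E18.5 mutants (log2 change 1.83 ± 0.23, edgeR FDR = 7.88e-05, and 2.02 ± 0.21, FDR = 7.15e-06; in controls 0.78, FDR = 0.170, under 5% mitochondrial UMIs). Excitatory neurons went the other way, from 401 to 527 CPM to 54.4 to 133 CPM. *Mbp* was the only called gene of 2 tested oligodendrocyte genes (1.64 and 1.37), with *Sox10* at 0. The control call of *Mbp* was lost without E18.5 control 3, with Cell Ranger 5.0.1 libraries only and under 5% mitochondrial UMIs. Of 9 tested genes of the dissociation response 1 fell in controls and 3 in mutants. Of 10 tested excitatory factors of the *Atoh1* lineage, 1 rose and 3 fell in controls and 2 rose and 4 fell in mutants. *Atoh1* itself (chr6:64729125-64731245, plus strand) was at 1.14 to 17.4 CPM at E14.5 and 0 to 8.88 CPM at E18.5.

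To ask whether the S193A allele changed the inhibitory neurons, mutant and control libraries were compared within each stage. In the fit without litters, 1 of 10661 genes was called at E14.5 (0.00938%), and 0 (0.0%) at E18.5, over both stages and for the difference between stages, while 401, 490, 482 and 463 genes had an unadjusted edgeR p under 0.05. DESeq2 called 0, 1, 2 and 2. With the litter as a block, which leaves 3 residual degrees of freedom, edgeR called 43 genes at E14.5 (0.403%; 0.178% higher and 0.225% lower in mutants), 9 at E18.5 (0.0844%; 0.075% higher and 0.00938% lower), 7 over both stages (0.0657%; 0.0469% higher and 0.0188% lower) and 14 for the difference (0.131%; 0.0844% higher and 0.0469% lower). At E18.5 the blocked fit holds 2 complete littermate pairs, because control 1 was outside the fit and mutant 1 has no partner. The E18.5 side of the blocked values over both stages and for the difference rests on the same 2 pairs. In the fit of all 11 libraries without the block no list gene was called. Some were called in that fit with libraries left out or with no filter on low counts, among them *Foxp2* for the difference between stages (FDR = 0.00604 without litter 2 of E14.5).

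At E14.5 the blocked fit took *Sst* as lower in mutants. The litters gave 593 against 245, 665 against 270.3 and 930.1 against 540.4 CPM, lower in 3 of 3 pairs, with a log2 difference of -1.19 ± 0.14 (edgeR with litter block, FDR = 1.57e-05). The groups did not overlap, and without the block the difference was -1.13 ± 0.34 with an FDR above 0.05. *Npy* was 642 against 502, 259 against 42.7 and 857 against 548 CPM (-1.12 ± 0.22, blocked FDR = 0.0165), and *Pax8* was lower as well (-1.15 ± 0.24, blocked FDR = 0.0218). *Grm5* was at 181, 64.7 and 338 CPM in controls and 52.0, 27.3 and 160.3 CPM in mutants (-1.42 ± 0.16, blocked FDR = 1.57e-05), with overlapping groups. In the pooled cells *Sst*, *Npy* and *Pax8* were more frequent in *Hox*-positive neurons, and *Grm5* was higher in them in each E14.5 library. Within the *Hox*-positive neurons *Grm5* was at 261, 96.7 and 606 CPM in controls and 89.2, 35.1 and 259 CPM in mutants, lower in 3 of 3 pairs, and in the neurons with 0 to 2 *Hox* UMIs it was at 10.1 to 19.8 CPM in every library. *Npy* in the *Hox*-positive neurons was at 935, 416 and 1514 CPM in controls and 1079, 31.0 and 926 CPM in mutants, lower in 2 of 3 pairs. Among neurons without a *Hox* UMI the log2 difference was 1.56 for *Npy* and 0.39 for *Grm5* in the fit without litters (edgeR FDR = 1.0 for both). Within the *Hox*-positive neurons *Sst* was at 861, 991 and 549 CPM in controls and 162, 411 and 868 CPM in mutants, lower in 2 of 3 pairs, and in the other neurons of control 3 it reached 1382 CPM. The other list genes that the blocked fit called lower at E14.5 were *Hoxb6* (-1.16), *Lhx2* (-1.0), *Nxph1* (-0.83) and *Tuba1a* (-0.33), each the only called gene of its list. Without the block, *Lhx2* turned to 0.18 with E14.5 control 2 left out and *Nxph1* to 0.17 among neurons without a *Hox* UMI.

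*Foxp2* (chr6:14901349-15441977, plus strand) was at 115, 279 and 166 CPM in E14.5 controls and at 296, 363 and 364 CPM in E14.5 mutants, and the groups did not overlap (0.80 ± 0.15, edgeR with litter block, FDR = 0.0136). In neurons with fewer than 3 *Hox* UMIs it was at 267, 477 and 314 CPM against 515, 550.1 and 792 CPM. In those with at least 3 the groups overlapped, at 44.2, 157 and 40.7 CPM in controls and 41.5, 242 and 69.6 CPM in mutants. Over all neurons the order at E18.5 was opposite, with 97.7, 115 and 144 CPM in controls and 48.8, 72.8 and 38.7 CPM in mutants, again without overlap. Control 1, with 6 neurons, was outside the fit, and *Foxp2* was not called at E18.5 with the block (-1.28 ± 0.34, FDR = 0.245) or without it (-1.32, FDR = 0.879). The difference between stages was -2.09 ± 0.37 (blocked FDR = 0.0125) and -2.08 ± 0.44 without the block (FDR = 0.562). Without litter 2 of E14.5 it was -2.52 (FDR = 0.00604).

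Among higher genes of the E14.5 mutants were immediate early genes. *Egr1* was at 32.3, 22.5 and 17.7 CPM in controls and 96.3, 56.6 and 76.7 CPM in mutants (1.49 ± 0.21, edgeR with litter block, FDR = 0.000351), *Jun* at 186, 117 and 188 CPM against 308, 256 and 311 CPM (0.81 ± 0.12, FDR = 0.000372), and *Fos* was higher by 0.98 (FDR = 0.00227). They were 3 of 9 tested genes of the dissociation response, with none lower. The groups did not overlap for *Egr1* and *Jun*. The summed list of dissociation response genes was 711 to 1084 CPM in E14.5 control and 1124 to 1565 CPM in E14.5 mutant inhibitory neurons. In the excitatory neurons of these libraries *Egr1* was at 36.0, 17.5 and 17.4 CPM and 51.4, 46.1 and 32.6 CPM. The 7 astrocyte and radial glia genes, summed, were at 77.3 to 240.2 CPM in E14.5 controls and 121 to 490.0 CPM in E14.5 mutants, so the genotypes overlapped. The median log2 difference of the 4 tested was 1.11 (1.31 without the block), against -0.01 for all genes. *Fabp7* had 17, 57 and 10 UMIs in controls and 160, 51 and 13 in mutants, and *Sox9* 4, 15 and 0 against 73, 25 and 19, so that mutant 1 was highest for both. In litter 2 *Fabp7* and *Vim* (352 and 280 UMIs) were lower in the mutant, and *Sox9* was higher. In litter 3 the inhibitory neurons held 873442 UMIs in the mutant and 452641 in the control. Scaled to these totals, *Fabp7* was lower in that mutant, while *Vim* and *Sox9* were higher. *Id1* and *Id3*, outside the lists and taken up after their values were seen, were also called higher (2.16 and 2.76) with their highest level in mutant 1. The part of dissociation or of glial RNA in the genotype differences was not tested, and for litters 1 and 2 genotype and software version cannot be told apart. *Epha5* (0.73) and *Sox9* (2.25; -0.054 without the block among neurons with no *Hox* UMI) were the other list genes called higher, beside *Foxp2* and the reporter.

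At E18.5 the list genes called by the blocked fit, which there rests on 2 littermate pairs, included 3 of 9 tested cell cycle genes. *Mki67* (5.12, edgeR with litter block, FDR = 4.70e-05), *Top2a* (3.87, FDR = 0.00071) and *Ccnd2* (2.26, FDR = 4.70e-05) were higher in mutants. *Ccnd2* was found in 6, 9 and 13 cells of mutants 1 to 3, where 1 cell gave 30%, 52.1% and 87.2% of its UMIs. In mutant 1, which adds nothing to the blocked difference, *Ccnd2* was at 28.7 CPM, against 35.5, 39.9 and 63.1 CPM in the controls. When the cells with the highest doublet scores were left out, the fit without litters gave a difference of 1.25 for *Mki67*, 1.03 for *Top2a* and -0.78 for *Ccnd2* (edgeR FDR = 1.0 for each), and the change of *Mki67* between stages in mutants was 0.30 (FDR = 0.895). *Npy* was also called (FDR = 0.0423), from 61 UMIs of 1 cell of mutant 3 with 0 in the other E18.5 libraries, so its fitted difference gives no size.

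The reporter was followed through the WPRE element of the tdTomato transcript. Inhibitory neurons had 53.8, 113 and 42.0 CPM in E14.5 controls, 128, 146 and 149 CPM in E14.5 mutants, 79.9, 64.8 and 87.0 CPM in E18.5 controls and 215, 235 and 148 CPM in E18.5 mutants. Excitatory neurons of the same libraries had 231 to 408 CPM at E14.5 and 244 to 369.8 CPM at E18.5. The element was lower in inhibitory neurons in 12 of 12 libraries, by 1.51 on the log2 scale (SD 0.811, 2.85-fold; exact sign-flip test, p = 0.000488, the smallest possible). No gene of the rule is part of the element, but the sort was on tdTomato, and the rule capped *Barhl1* in the inhibitory neurons alone. Inhibitory neurons with 1 UMI of *Barhl1* had 195 CPM of WPRE at E14.5 and 205 CPM at E18.5, against 117 and 152 CPM in all of them. The comparison is therefore not independent of the rule.

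Within the inhibitory neurons WPRE was higher in every mutant than in every control of the same stage. The blocked edgeR fit gave a log2 difference of 1.01 ± 0.18 over both stages (FDR = 0.0135) and the fit without litters 1.07 ± 0.21 (FDR = 0.519). On the log2(CPM + 1) scale the mean difference over all 12 libraries was 1.24, with 1.13 at E14.5 and 1.34 at E18.5. The values on this scale were computed after the separation had been seen and are a description without a test. The same difference was 0.01 in excitatory neurons and 0.26 in inhibitory cells without *Tfap2b*. In the latter it was 0.65 at E14.5, where every mutant (95.1 to 117 CPM) also lay above every control (53.6 to 92.5 CPM), and -0.13 at E18.5, where the genotypes overlapped. The inhibitory level minus the excitatory one differed between genotypes by 1.23 over both stages, also computed after the separation had been seen. No such value was taken against inhibitory cells without *Tfap2b*. Among inhibitory neurons with no *Slc17a6* UMI WPRE was at 31.6, 71.2 and 26.3 CPM in E14.5 controls, 119.7, 117 and 151 CPM in E14.5 mutants, 22.6, 57.4 and 95.5 CPM in E18.5 controls and 224, 219.9 and 112 CPM in E18.5 mutants, a difference of 1.74 on the same scale.

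**Figure D5:**
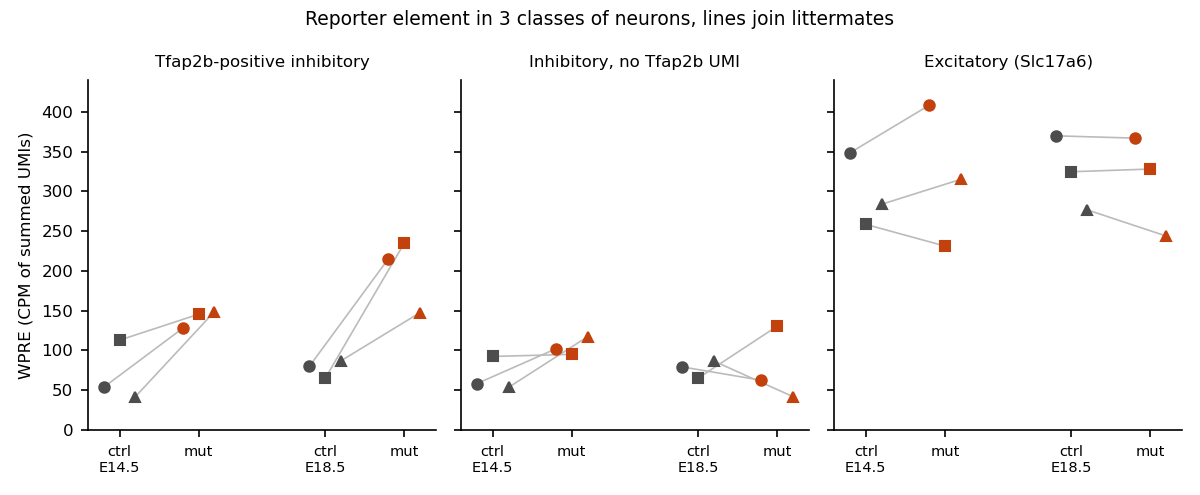
WPRE level (y axis, CPM) per library in *Tfap2b*-positive inhibitory neurons, in inhibitory cells without *Tfap2b* and in excitatory neurons, by stage and genotype, with lines that join littermates. In *Tfap2b*-positive neurons every line rises from control to mutant, and the excitatory neurons lie at 231 to 408 CPM.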

How the data were processed

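Sorted hindbrain cells were profiled with 10x Genomics 3′ chemistry. The files deposited hold raw UMI counts for each gene and barcode, which the authors obtained with Cell Ranger on mm10 with the WPRE sequence added. The headers name Cell Ranger 3.1.0 for E14.5 controls 1 and 2 and 5.0.1 for the others. The methods state a mitochondrial limit of 1% and doublet removal with DoubletFinder. Here the limit was 10%, and cells of the top 7.5% of Scrublet scores were left out only as an alternative.

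UMIs were summed over the inhibitory neurons of each library with at least 10 of them (11 libraries) and tested by edgeR 4.0.16 (TMM, quasi-likelihood, R 4.3.3) over 10661 genes detected in 10% or more of the neurons of any group, with 7 residual degrees of freedom. A call needed an FDR (Benjamini-Hochberg) under 0.05 and a log2 change over 0.25 in size. A gene with no count in a group was bounded at 3 counts over that group. CPM are shares of the summed UMIs. Shares were tested by exact permutation of logits.

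Named genes were the 10 called genes with the largest change in each direction whose tested libraries do not overlap and whose mean reached 20 CPM. Sex-linked, mitochondrial, rule and unnamed genes were left out. Alternatives were DESeq2, no detection filter, a litter block, each library left out, the newer Cell Ranger version alone, each stage alone, under 5% mitochondrial UMIs, no *Slc17a6* UMI and no top doublet scores. Those without litter 2 of E14.5, without *Hox* UMIs and with libraries of at least 5 neurons were chosen after seeing the data. Some genes are not reported here. The members, gene lists and tests were chosen with earlier results of these data known.

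Same-numbered embryos were taken as littermates, because the study's methods name littermate controls and the labels number the replicates. Their deviations from the group means correlated over 5195 genes at 0.271, 0.563 and 0.243 at E14.5 and 0.0367 and 0.0961 at E18.5. Litter-blocked values are given where they change a call. One embryo per library was counted as 1 replicate. Intervals cover counting error only. Positions are from GENCODE M21 (GRCm38, the same sequence as mm10), and 360 of 361 genes matched by identifier.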

Additional observations from a re-analysis of the deposited data

Results flagged for a closer look

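Of the 14 genes for which the difference between mutant and control inhibitory neurons was itself different at E18.5 and E14.5, by the stage-by-genotype term of the edgeR fit with litter as a block, 7 belonged to the gene lists. The term was 2.99 (log2, FDR = 0.000288) for *Ccnd2*, 5.58 (FDR = 0.00641) for *Mki67*, 10.42 (FDR = 0.00572) for *Npy*, a fitted value that gives no size because *Npy* had no UMI in the E18.5 controls, 1.11 (FDR = 0.0415) for *Sst*, -1.68 (FDR = 0.031) for the ephrin receptor *Epha5*, -2.09 (FDR = 0.0125) for *Foxp2* and -1.17 (FDR = 0.0427) for *Jun*. At E18.5 the term rests on 2 littermate pairs. For *Sst* these went opposite ways, from 1257 to 1737 CPM in litter 2 and from 818 to 508 CPM in litter 3. None of the 7 was called in the edgeR fit of all 11 libraries without the block, which called 0 genes for this term (463 at an unadjusted p under 0.05). In that fit the term turned to -0.61 for *Ccnd2* without the top doublet scores, 0.069 for *Epha5* under 5% mitochondrial UMIs and -1.56 for *Npy* in neurons without *Hox* UMIs.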

How the results depend on the processing

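The odds ratio of mutant to control at E14.5 turned to 0.981 after thinning to 8000 UMIs and was 0.834 to 1.40 with 1 embryo left out (0.834 without control 3, 0.993 without mutant 2). That of E18.5 to E14.5 was 0.925 after thinning (p = 0.75) and 0.457 with Cell Ranger 5.0.1 libraries only (exact permutation p = 0.075).

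Stage calls in controls numbered 684 with DESeq2, 273 with Cell Ranger 5.0.1 libraries only, 265 under 5% mitochondrial UMIs and 235 to 1171 with 1 library left out (235 without E18.5 control 3, 597 without E18.5 control 2). In mutants they numbered 933, 643 under 5% mitochondrial UMIs, and 963 to 1414 with 1 library left out.

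Genotype calls at E14.5, at E18.5, over both stages and for their difference numbered 70, 50, 42 and 34 without the detection filter, 0, 1, 2 and 2 with DESeq2, 43, 9, 7 and 14 with the replicate block, and 0 to 7, 0 to 2, 0 to 1 and 0 to 1 with 1 library left out. Elsewhere they were 0 at E14.5 in Cell Ranger 5.0.1 libraries, in the stage alone and without *Slc17a6*, 2 without *Hox* UMIs and 9 without litter 2 of E14.5. At E18.5 and over both stages they were 1 under 5% mitochondrial UMIs and 1 without *Hox* UMIs, over both stages 1 with Cell Ranger 5.0.1 only, and 1 without litter 2 for both stages and for the difference. The difference of *Npy* at E14.5 turned to 1.56 and that of *Grm5* to 0.39 in neurons without *Hox* UMIs, and *Ccnd2* at E18.5 to -0.78 without the top doublet scores. At E14.5 *Nxph1* turned to 0.17 and *Sox9* to -0.054 without *Hox* UMIs, and *Lhx2* ranged from -1.90 to 0.18 with 1 library left out. The difference between stages turned to 0.069 for *Epha5* under 5% mitochondrial UMIs, -0.61 for *Ccnd2* without the top doublet scores and -1.56 for *Npy* without *Hox* UMIs.

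Among stage changes that were not called, *Sst* in controls was -0.060 with Cell Ranger 5.0.1 only, -0.50 under 5% mitochondrial UMIs, -0.076 with libraries of at least 5 neurons and -0.13 without *Hox* UMIs. *Tfap2a* in mutants was -0.27 under 5% mitochondrial UMIs, -0.59 without *Hox* UMIs, -0.084 without litter 2 and -0.089 to 0.31 with 1 library left out, and *En2* in mutants was -0.46, -0.69 without *Hox* UMIs and -0.11 to 0.30. *En2*, called in controls, was -0.64 without *Hox* UMIs. The causes were not tested. Every other value computed kept its direction. The block changed no other call given in the text. E18.5 rests on 138 neurons, so low genes there were at the limit of detection.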

Other observations

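The gene called without the litter block at E14.5 was a long noncoding RNA, AC160336.1 (chr14:44544055-44637201), at 281, 350.5 and 0 CPM in controls and 2.89, 7.45 and 3.43 CPM in mutants (log2 difference -5.45, edgeR FDR = 0.0489). It was high in controls 1 and 2, the pair made with the other software version, and lay outside the named-gene rule, so it was chosen after its values had been seen.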
